A study of Mus musculus with 21 samples.

Results

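Imprinted genes of mouse chromosome 7 that belong to the Snrpn-Ndn cluster (Snrpn, Ndn, Magel2, Mkrn3 and Ube3a) and the Peg3 cluster (Peg3, Usp29 and Zim1) were followed across embryonic stem (ES) cells, fibroblasts and round sperm. The members were the 8 genes named here, of 18193 genes with a probe set of their own. They were taken by gene symbol and chosen with earlier results of these data known. They were measured by 31 of the 45101 probe sets of the array. Of these, 25 carried a single member symbol, and 6 carried the paired symbol Snurf;Snrpn and are reported separately as Snurf-Snrpn probe sets. Total RNA had been hybridised to 21 Affymetrix mouse arrays, 3 for each of 7 groups. The lines AH129-5, AH129-N1 and AH129-NC1 were androgenetic haploid ES (ahES) cells, whose only genome is of paternal origin, labelled with a 129 Sv background and sorted as haploid cells in G0/G1. CS1-1 and R1 were diploid ES lines, also labelled 129 Sv, for which no sort was stated. All 5 ES lines had been kept in N2B27 with 2i and LIF. Mouse embryonic fibroblasts (MEF) of the CD1 strain were grown in DMEM with serum. Round sperm, haploid male germ cells of 129 Sv mice sorted in G0/G1, came fresh from testis. No gene was deleted or added in any group per the labels. Per the titles, each group has 3 biological replicates of its line or cell type. Parental origin, ploidy, the sort and the history of each line changed together between ahES and diploid ES cells and cannot be told apart.

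An imprinted gene is transcribed mainly from the copy inherited from a given parent, and the mark that distinguishes the copies is DNA methylation laid down in the germline. In the Snrpn-Ndn cluster, which corresponds to the human Prader-Willi and Angelman region, a control region at the Snrpn promoter is methylated on the maternal copy, and Snrpn, Snurf, Ndn, Magel2, Mkrn3, Peg12 and the long noncoding host transcript Snhg14 are expressed from the paternal copy. Ube3a is expressed from the maternal copy in neurons, where Snhg14 runs antisense to it, and from both copies in most other cells. In the Peg3 cluster, Peg3 and Usp29 share a maternally methylated start region and are paternally expressed, whereas Zim1 is maternally expressed. Cells with a purely paternal genome carry the copy that is normally active for most of the members and lack the copy that is normally active for Zim1.

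Start windows of Ndn, Peg3 and Snrpn (windows 1 and 2) are shown, since start regions in both clusters can carry parental marks. Whether each window shown carries such a mark was not measured. All 8 genes were matched to RefSeq start windows of the GRCm38.p6 build, each running from 250 bases before to 50 bases after an annotated start. There were 11 windows, 4 of them for Snrpn, and all lay on chromosome 7. In the annotation's order the genes were Zim1, Peg3 and Usp29, followed at a distance by Ube3a, Snhg14, Snrpn, Ndn, Magel2, Mkrn3 and Peg12. The capitals in the Ndn and Snrpn windows mark CGCATGCG, a palindrome that reads the same on both strands and forms the core of the binding sequence of the transcription factor NRF1. In Snrpn window 1, the capitals further upstream mark TGCCGC read on the opposite strand, the sequence bound by the imprint-protecting factor ZFP57 when methylated.
Ndn, chr7:62348027-62348326, plus strand: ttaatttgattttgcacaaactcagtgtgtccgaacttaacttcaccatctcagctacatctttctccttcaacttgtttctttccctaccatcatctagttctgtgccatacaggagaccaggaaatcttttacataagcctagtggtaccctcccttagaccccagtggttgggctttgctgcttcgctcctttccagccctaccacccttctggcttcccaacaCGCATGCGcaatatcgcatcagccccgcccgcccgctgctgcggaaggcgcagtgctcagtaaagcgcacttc
Snrpn window 1, chr7:60005150-60005449, minus strand: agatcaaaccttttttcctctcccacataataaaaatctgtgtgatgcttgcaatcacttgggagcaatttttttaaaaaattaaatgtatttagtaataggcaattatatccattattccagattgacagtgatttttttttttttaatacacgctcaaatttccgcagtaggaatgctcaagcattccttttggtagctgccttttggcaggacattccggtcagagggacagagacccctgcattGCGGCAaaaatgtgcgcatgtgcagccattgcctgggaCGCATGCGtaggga
Snrpn window 2, chr7:60047929-60048228, minus strand: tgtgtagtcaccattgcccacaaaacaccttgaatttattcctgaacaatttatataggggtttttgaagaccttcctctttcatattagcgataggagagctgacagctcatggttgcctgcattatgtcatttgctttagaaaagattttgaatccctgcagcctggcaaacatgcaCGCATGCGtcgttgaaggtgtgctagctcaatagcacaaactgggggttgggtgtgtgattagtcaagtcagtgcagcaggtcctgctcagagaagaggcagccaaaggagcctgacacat
Peg3, chr7:6730370-6730669, minus strand: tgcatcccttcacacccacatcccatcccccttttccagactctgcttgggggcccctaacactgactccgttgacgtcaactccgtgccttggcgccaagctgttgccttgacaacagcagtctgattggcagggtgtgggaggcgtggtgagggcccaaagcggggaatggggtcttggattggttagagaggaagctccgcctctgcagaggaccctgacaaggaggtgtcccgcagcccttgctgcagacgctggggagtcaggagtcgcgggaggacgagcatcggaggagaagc

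The palindrome CGCATGCG occurred once in the Ndn window and once in each of the 4 Snrpn windows, and in none of the other 6 windows. It was found in 1.87% of the 32851 start windows in the table. It was picked after these windows had been read, and its presence is a description of the letters, not of binding. The 4 Snrpn windows shared the 10 bases acgcatgcgt around it. Snrpn windows 2, 3 and 4 belonged to annotated starts further upstream and shared a stretch of 49 bases, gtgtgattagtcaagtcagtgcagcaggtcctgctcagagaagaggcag. They are annotated as starts of the same gene. TGCCGC on either strand was present in Snrpn window 1 and in the Zim1 window, against 11.6% of all windows. GCCATNTT, the YY1 sequence, was present on either strand in the Ube3a and Mkrn3 windows, against 6.05% of all windows. The Peg3 and Usp29 windows overlapped by 263 bases on opposite strands, on either side of their start sites. The dinucleotide CG occurred 11 times in the Ndn window, 7, 4, 3 and 2 times in Snrpn windows 1 to 4, and 13 times in the Peg3 window, against a median of 7 over all windows.

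Levels are given as log2(signal + offset), where the signal is the MAS5 value and the added offset of 9.73 signal units limits the noise of dim probe sets. MAS5 scaling gives all arrays the same trimmed mean, so the values are relative to the whole array and not per cell. A probe set entered a test when at least 1 group of the comparison had all its arrays over the 40th percentile, a level that fell between 5.34 and 5.63. Of the 31 probe sets, 21 met this in at least 1 group and 10 in none. A call required a Benjamini-Hochberg adjusted p under 0.05 over all probe sets tested, and a difference of at least 2-fold. Markers were compared with the labels by detection and by level. All 8 ES cell markers lay above the 40th percentile on all 3 arrays of each ES line. All 25 fibroblast markers did so in MEF, and all 11 spermatid markers in round sperm. Detection alone did not separate the groups. All 25 fibroblast markers also passed in AH129-NC1 and R1, and 5 of 8 ES cell markers in round sperm. By level, all 8 ES cell markers were called higher and 24 of 25 fibroblast markers lower in ahES cells than in MEF. Of all genes tested, 21.1% were called higher and 21.3% lower there. All 11 spermatid markers were called lower in ahES cells than in round sperm, against 32.6% of all genes. Round sperm stood apart in RNA quality on Gapdh, with a 3' minus 5' difference of 0.55 ± 0.17 (SD, n = 3), against group means of -0.30 to -0.20 in the other 6 groups. On Actin, the round sperm arrays ran from 0.50 to 1.00 and overlapped the ES arrays, at 0.45 to 0.63. The MEF arrays lay below the ES arrays on Actin, at 0.28 to 0.39.

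Ndn, which encodes the growth-suppressing MAGE-family protein necdin, was the member that differed between ahES and diploid ES cells. On its brightest probe set, 1435383_x_at, the level was 10.34, 10.39 and 10.28 in AH129-5, 10.22, 10.35 and 10.23 in AH129-N1, and 10.50, 10.54 and 10.48 in AH129-NC1, against 7.79, 7.46 and 7.68 in CS1-1 and 9.22, 9.28 and 9.36 in R1. All 9 ahES arrays lay above all 6 diploid arrays, and CS1-1 lay well below R1. The 9 ahES arrays spanned little, with a mean of 10.37 ± 0.12 (SD, n = 9), against 8.47 ± 0.91 (SD, n = 6) in diploid ES cells. The difference was 1.90 ± 0.27 (SE), or 3.74-fold, with limma's adjusted p of 8.49e-05. In bulk RNA such as this, fewer cells that express a gene and less RNA per cell cannot be told apart.

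All 5 Ndn probe sets above the filter were called higher in ahES cells, with differences of 1.57 ± 0.27, 1.83 ± 0.24, 1.90 ± 0.27, 1.89 ± 0.44 and 2.08 ± 0.30 (SE) and limma's adjusted p between 1.8e-05 and 0.00985. On each of them the 9 ahES arrays and the 6 diploid arrays did not overlap, though arrays of a line are not independent. The share of all tested probe sets with such a gap is not given here. These 5 probe sets measure the same gene and are not independent of each other. They were the only calls among the 16 tested probe sets with a member symbol, while 2.53% of all tested probe sets were called higher in ahES cells and 1.38% lower. The median difference over the 16 was 0.33, against -0.04 over all tested probe sets. With each line reduced to its mean, 3 lines against 2, the Ndn differences were the same in size but missed the threshold, with limma's adjusted p between 0.061 and 0.118. Probe set 1437853_x_at also lost its call without the line AH129-NC1, at 1.81 with an adjusted p of 0.0558, and 1415923_at without CS1-1, at 0.83.

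**Figure D1:**
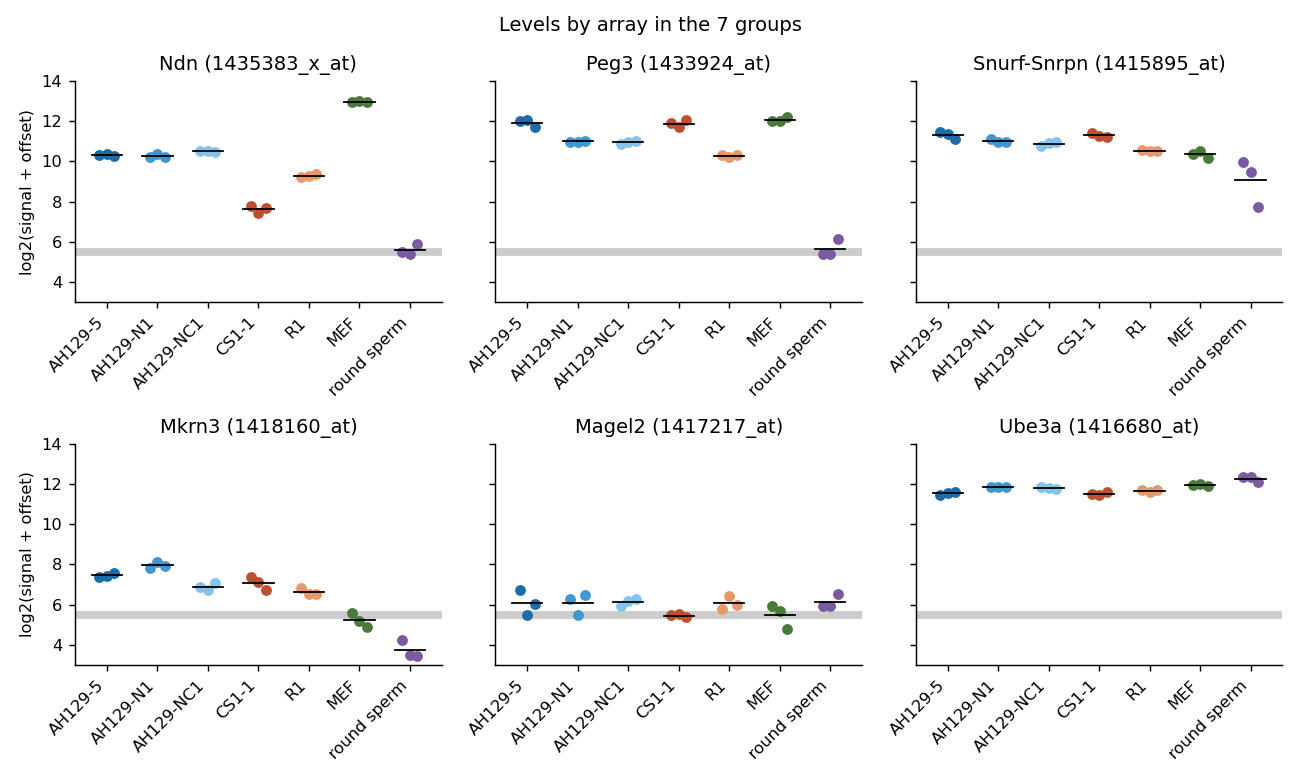
Level of 6 members by array, as log2(signal + offset), in the 7 groups. Points are arrays, black bars are group means, and the grey band spans the 40th percentiles of the arrays. Ndn lay at 10.22 to 10.54 in the ahES lines, 7.46 to 7.79 in CS1-1, 9.22 to 9.36 in R1 and about 13 in MEF, while Ube3a stayed between 11.44 and 12.34 everywhere.

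The size of the Ndn difference depended on the diploid line. Against CS1-1, the 5 probe sets were higher in ahES cells by 2.32 to 2.90, and all 5 were called. They were the only calls among 16 tested probe sets with a single member symbol. Of all tested probe sets, 6.67% were called higher and 5.35% lower. Against R1, the differences were 0.83 to 1.27, and 4 of the 5 were called; probe set 1415923_at, at 0.83 ± 0.08 (SE, adjusted p = 7.73e-08), fell short of 2-fold. The calls against R1 sat near the 2-fold limit, and probe set 1437853_x_at, at 1.01 ± 0.19 (SE), dropped just below it, to between 0.98 and 1.00, without AH129-N1 replicate 1 or 2, AH129-NC1 replicate 2, or R1 replicate 1 or 3. CS1-1 was lower than R1 on all 5, by -1.75 to -1.39 on the log2 scale with limma's adjusted p between 1.23e-11 and 3.97e-05. Among ahES lines, AH129-NC1 had the highest Ndn mean on all 5 probe sets, by 0.17 to 0.44 over AH129-5, and none of the pairwise Ndn differences was called. The order of the group means on 1435383_x_at was MEF, AH129-NC1, AH129-5, AH129-N1, R1, CS1-1 and round sperm. The arrays of AH129-5 and AH129-N1 overlapped, and all other neighbours in that order were separate.

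**Figure D2:**
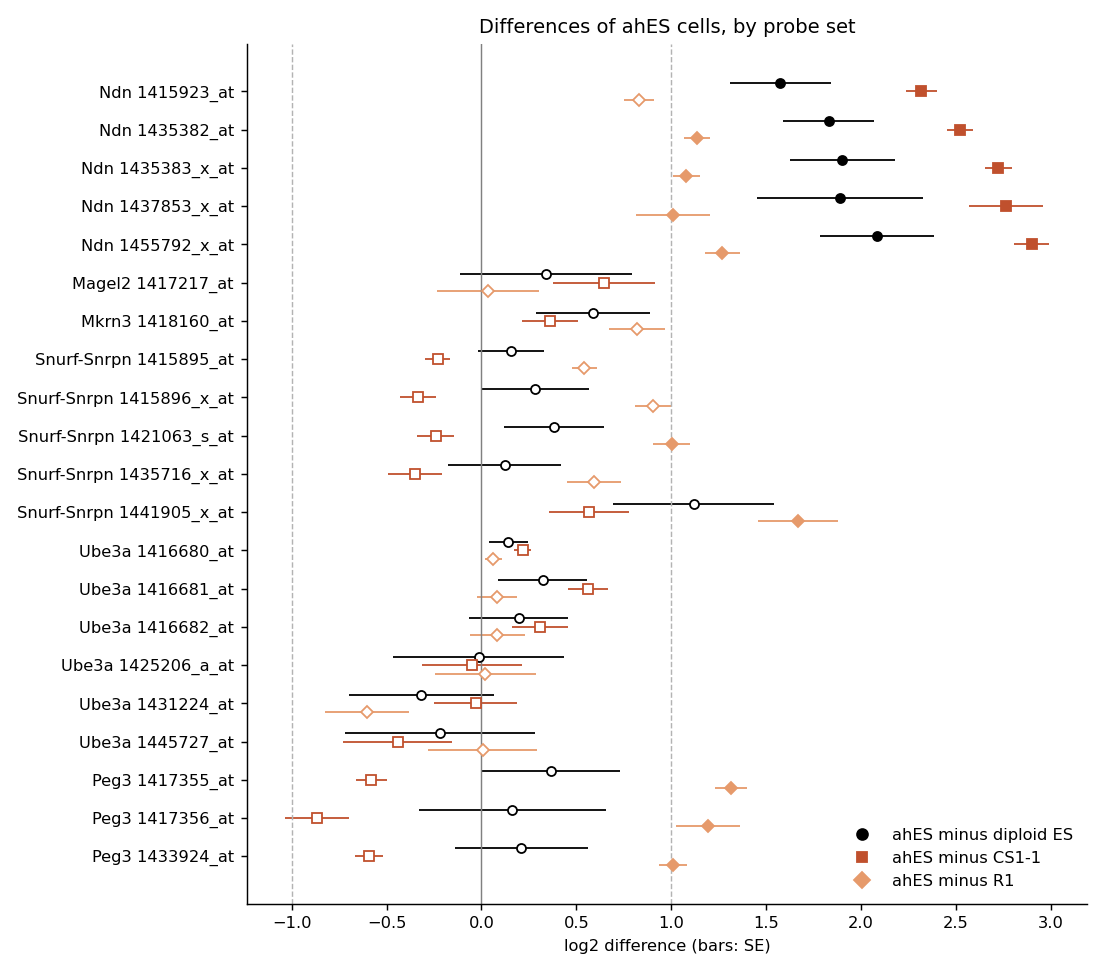
Difference in level of ahES cells from diploid ES cells (circles), CS1-1 (squares) and R1 (diamonds), in log2 units with SE, for the 21 probe sets above the filter. Filled symbols were called, and dashed lines mark 2-fold in either direction. The Ndn probe sets lay right of 0 against both lines, whereas the 3 Peg3 probe sets lay at -0.87 to -0.58 against CS1-1 and at 1.01 to 1.31 against R1.

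Fibroblast genes moved with Ndn across part of these comparisons. Ndn was brightest in MEF, and its signal on 1435383_x_at was 15.9% of the MEF mean in AH129-5, 15.1% in AH129-N1, 17.9% in AH129-NC1, 2.37% in CS1-1 and 7.63% in R1. The list of 25 fibroblast markers, which holds collagens and other matrix genes, had summed signals of 58169 to 64254 in AH129-5, 48215 to 53998 in AH129-N1, 49176 to 50283 in AH129-NC1, 29082 to 30604 in CS1-1, 66430 to 68198 in R1 and 379851 to 392962 in MEF. The median marker reached 8.52% of its MEF level in AH129-5, 8.73% in AH129-N1, 8.69% in AH129-NC1, 1.53% in CS1-1 and 10.2% in R1. CS1-1 was the lowest ES line in both, whereas each ahES line was higher than R1 in Ndn and lower than R1 in the median marker. Of the 25 markers, 21 lay above 0 in ahES minus diploid ES with a median of 0.90, a share not given here for all genes. In that comparison 2 were called higher and 0 lower, against 3.33% and 1.66% of all genes. In the comparison with CS1-1 alone, 20 were called higher and 0 lower in ahES cells than in CS1-1, against 8.20% higher and 5.51% lower over all genes tested. In ahES cells relative to R1, 0 were called higher and 3 lower, against 4.93% and 2.95% of all genes. In CS1-1 relative to R1, 0 were called higher and 21 lower, against 4.18% and 5.68% of all genes. All 6 defining markers (Col1a1, Col1a2, Col3a1, Dcn, Thy1 and Pdgfrb) lay above the 40th percentile on all arrays of the ahES lines and R1, and 5 of 6 did so in CS1-1, where Thy1 did not. Against R1 the Ndn difference was positive, while 4 of the 25 markers lay above 0. The part played by fibroblast RNA was not tested, either for the difference from CS1-1 or for that from R1.

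**Figure D3:**
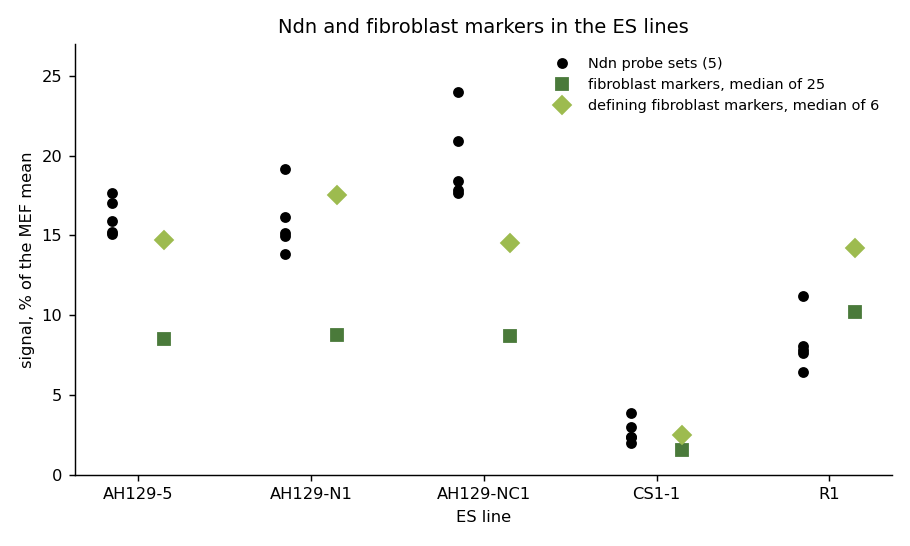
Signal of the 5 Ndn probe sets (black points) and median signal of the 25 fibroblast markers (squares) and the 6 defining fibroblast markers (diamonds) in each ES line, as a percent of the MEF mean. Ndn ran from 13.9% to 24.0% in the ahES lines, 2.02% to 3.87% in CS1-1 and 6.42% to 11.2% in R1.

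Peg3, a zinc finger protein and the leading paternally expressed gene of its cluster, differed between single ES lines. On probe set 1433924_at the level was 12.02, 12.09 and 11.69 in AH129-5, 10.95, 10.99 and 11.04 in AH129-N1, and 10.88, 10.97 and 11.00 in AH129-NC1, against 11.90, 11.71 and 12.04 in CS1-1 and 10.32, 10.21 and 10.31 in R1. AH129-5 and CS1-1 overlapped at the top, AH129-N1 and AH129-NC1 overlapped in the middle, and R1 lay below all of them. The ahES mean was 11.29 ± 0.49 (SD, n = 9) and the diploid mean 11.08 ± 0.88 (SD, n = 6). None of the 3 Peg3 probe sets above the filter was called between ahES and diploid ES cells, with differences of 0.37 ± 0.36, 0.16 ± 0.49 and 0.21 ± 0.35 (SE) and limma's adjusted p of at least 0.637. The 95% interval on 1433924_at ran from -0.54 to 0.96, so a change of nearly 2-fold upward lay within it.

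Taken one diploid line at a time, Peg3 lay below CS1-1 by less than 2-fold in ahES cells and above R1 by more than 2-fold. Against CS1-1 the 3 differences were -0.58, -0.87 and -0.59, with limma's adjusted p between 1.38e-06 and 0.000248, all short of 2-fold. Against R1 they were 1.31, 1.19 and 1.01, and all 3 were called. With the 4 Ndn probe sets they made 7 of 16 probe sets with a single member symbol called higher than R1, from 2 genes. Of all tested probe sets, 4.22% were called higher and 3.09% lower. The call on 1433924_at rested on a difference of 1.01 ± 0.07 (SE), and it fell just short of 2-fold without AH129-5 replicate 1 (0.99), AH129-5 replicate 2 (0.98) or R1 replicate 2 (0.97). CS1-1 was higher than R1 by 1.89 ± 0.10, 2.06 ± 0.21 and 1.60 ± 0.09 (SE), with limma's adjusted p between 2.19e-11 and 1.7e-07. Together with the 5 Ndn probe sets this gave 3 probe sets called higher and 5 lower in CS1-1 than in R1, from 2 genes. They were among 16 tested probe sets with a single member symbol. Over all tested probe sets, 4.26% were called higher and 4.82% lower. Ndn and Peg3 thus lay in opposite order in the diploid pair. Within the ahES lines, AH129-5 exceeded AH129-N1 by 0.88 to 1.30 and AH129-NC1 by 0.74 to 1.22 on the 3 Peg3 probe sets. The arrays of these pairs did not overlap there, a separation whose share over all probe sets is not given here. Probe set 1417356_at was the only one of the 3 called in each of these pairs, at 1.30 ± 0.21 (SE, adjusted p = 7.77e-05) over AH129-N1 and 1.22 ± 0.21 (SE, adjusted p = 0.00017) over AH129-NC1. In AH129-5 minus AH129-NC1 it was the only call among 14 tested probe sets with a single member symbol. Of all tested probe sets, 3.01% were called higher and 1.81% lower. Without AH129-5 replicate 2, 1417356_at stood at 0.99, short of 2-fold.

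On the 4 bright Snurf-Snrpn probe sets, AH129-5 and CS1-1 had the highest means among ES lines and R1 the lowest, as on the Peg3 probe sets. On the dim probe set 1441905_x_at, AH129-5 at 7.34 and AH129-NC1 at 6.42 lay above CS1-1 at 6.03. Snrpn encodes a core protein of the spliceosome and Snurf a small protein read from the same transcript, so the 2 genes cannot be separated here. On 1415896_x_at the level was 10.93, 10.88 and 10.94 in AH129-5, 10.58, 10.56 and 10.47 in AH129-N1, and 9.85, 10.16 and 10.41 in AH129-NC1, against 11.03, 10.97 and 10.60 in CS1-1 and 9.55, 9.66 and 9.68 in R1. R1 lay below all other lines, and AH129-5 and CS1-1 overlapped at the top. None of the 5 Snurf-Snrpn probe sets above the filter was called between ahES and diploid ES cells. The 4 bright ones differed by 0.12 to 0.38, and their 95% intervals together ran from -0.51 to 0.93. The dim probe set 1441905_x_at differed by 1.12 ± 0.42 (SE) with limma's adjusted p of 0.101, and it was called when the line was not used as a block (adjusted p = 0.00968), when no filter was set (adjusted p = 0.0413) or without the line CS1-1 (adjusted p = 0.0274).

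Against R1, 2 of the 5 Snurf-Snrpn probe sets were called higher in ahES cells, where 4.22% of all tested probe sets were: 1421063_s_at at 1.00 ± 0.10 (SE), and 1441905_x_at, at least 2.13-fold higher because R1 lay near background there. The first sat at the limit and stood between 0.86 and 1.00 without replicate 1 of any ahES line, AH129-NC1 replicate 3 or R1 replicate 2, the lowest value being that without R1 replicate 2. On the 4 bright probe sets CS1-1 was above R1 by 0.77 to 1.24, with limma's adjusted p between 8.01e-08 and 0.00052, and 2 of them were called. On 1441905_x_at CS1-1 was at least 1.43-fold higher than R1 (limma's adjusted p = 0.00186), and its call was lost without CS1-1 replicate 1 or replicate 3, with a fitted difference of 0.99 each time. That made 3 of 5 called higher, where 4.26% of all tested probe sets were. Relative to CS1-1, ahES cells were at -0.23, -0.34, -0.24 and -0.35 on the 4 bright probe sets, none of them called. Snhg14, the noncoding transcript that extends from the Snrpn start towards Ube3a, had probe sets 1436964_at and 1455087_at at 1.03 and 1.01 above R1 in ahES cells, both called, and at 1.20 and 1.36 above R1 in CS1-1, both called. Its difference between ahES and diploid ES cells was 0.43 ± 0.27 and 0.33 ± 0.34 (SE), neither called. The only probe set that carries Snrpn as its single symbol, 1432096_at, never passed the filter, with levels of 3.76 to 6.70 and 8 of 21 arrays above the percentile.

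**Figure D4:**
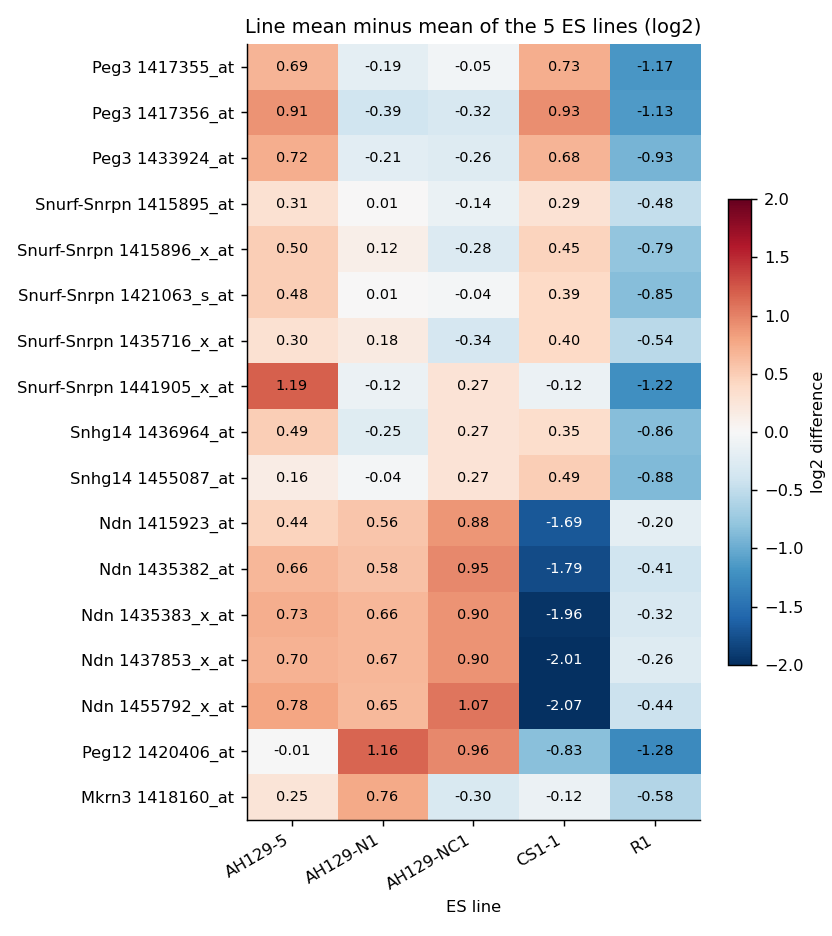
Mean of each ES line minus the mean of the 5 ES line means (log2), by probe set, with the ahES lines to the left of CS1-1 and R1. Red is above and blue below that mean. Peg3 was at 0.68 to 0.93 in AH129-5 and CS1-1 and at -1.17 to -0.93 in R1, whereas Ndn was at -2.07 to -1.69 in CS1-1 and at 0.44 to 1.07 in the ahES lines.

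Of the genes beyond Ndn, Mkrn3, a makorin RING finger protein known as a brake on puberty, varied among the ahES lines. Its level on 1418160_at was 7.36, 7.41 and 7.58 in AH129-5, 7.80, 8.14 and 7.92 in AH129-N1, and 6.89, 6.72 and 7.06 in AH129-NC1, against 7.35, 7.14 and 6.73 in CS1-1 and 6.81, 6.51 and 6.53 in R1. AH129-N1 lay above all other groups, AH129-5 lay above AH129-NC1, CS1-1 and R1, and CS1-1 overlapped AH129-NC1 and R1. The ahES minus diploid ES difference was 0.59 ± 0.30 (SE, adjusted p = 0.251) and was not called. AH129-N1 was higher than AH129-NC1 by 1.06 ± 0.18 (SE, adjusted p = 0.000208). That was the only call among 16 tested probe sets with a single member symbol in that pair. Of all tested probe sets, 1.02% were called higher and 1.73% lower. The Mkrn3 difference missed 2-fold when replicate 2 of AH129-N1 (0.97) or of AH129-NC1 (0.98) was left out.

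Magel2, a MAGE-family gene next to Ndn, was dim in all groups. Its single probe set, 1417217_at, ran from 5.46 to 6.72 in the ahES lines, from 5.36 to 6.42 in the diploid lines, from 4.77 to 5.95 in MEF and from 5.95 to 6.53 in round sperm. On 17 of the 21 arrays it lay above the 40th percentile. These ranges overlapped, and no comparison called it. Peg12, a FRAT-family gene at the far end of the cluster and not a member, was at 6.39, 6.07 and 6.52 in AH129-5, 7.43, 7.77 and 7.30 in AH129-N1 and 7.55, 7.08 and 7.26 in AH129-NC1, against 5.52, 5.61 and 5.40 in CS1-1 and 5.73, 3.77 and 5.67 in R1. All 9 ahES arrays lay above all 6 diploid arrays, a separation whose share over all probe sets is not given here. Peg12 was at least 2.75-fold higher in ahES cells (limma's adjusted p = 0.0401), a lower bound because the diploid mean lay near background. AH129-5 differed from AH129-N1 by -1.17 ± 0.37 (SE, adjusted p = 0.0198). Of the 3 tested genes on the list of other Snrpn-Ndn cluster genes, 1 (Peg12) was called in ahES minus diploid ES. Of all genes tested there, 3.33% were called higher and 1.66% lower. On the list of genes near both clusters that are not known to be imprinted, 0 of 11 tested were called in that limma comparison. Of these, 4 had an unadjusted p under 0.05, a share not given here for all genes, and the median was -0.04. With 11 genes and overall shares this low, 0 calls do not set the list apart.

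Ube3a, a ubiquitin ligase and the maternally expressed gene of the cluster in neurons, was present at high level in cells with and without a maternal genome. On 1416680_at the level was 11.47, 11.56 and 11.61 in AH129-5, 11.84, 11.86 and 11.84 in AH129-N1, and 11.86, 11.80 and 11.75 in AH129-NC1, against 11.51, 11.44 and 11.59 in CS1-1 and 11.69, 11.60 and 11.72 in R1. AH129-5 and CS1-1 were the lowest lines on this probe set, which is the reverse of their place for Peg3 and the bright Snurf-Snrpn probe sets. By mean signal they were also the lowest ES lines on 1416681_at and 1416682_at. On the dimmer 1425206_a_at, 1431224_at and 1445727_at they were not. The difference between ahES and diploid ES cells on 1416680_at was 0.14 ± 0.10 (SE, adjusted p = 0.475), with a 95% interval of -0.07 to 0.35. None of the 6 Ube3a probe sets above the filter was called in that comparison, with differences of -0.32 to 0.32. On 1416681_at, AH129-5 differed from AH129-N1 by -0.78 ± 0.13 and from AH129-NC1 by -0.71 ± 0.13 (SE), with limma's adjusted p of 0.000112 and 0.000316, both short of 2-fold. The dim probe set 1445727_at was called lower in AH129-5 than in AH129-N1, at least 1.38-fold because AH129-5 lay near background, and lost that call without AH129-5 replicate 1 (adjusted p = 0.174), AH129-N1 replicate 2 (adjusted p = 0.107) or AH129-N1 replicate 3 (adjusted p = 0.0755). With Peg3 1417356_at it made 2 of 16 probe sets with a single member symbol called in that pair, 1 in each direction. Of all tested probe sets, 3.49% were called higher and 1.35% lower.

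Usp29, a ubiquitin-specific protease that shares its start region with Peg3, and Zim1, the maternally expressed zinc finger gene of the cluster, were not detected above the filter in any group. The 2 Usp29 probe sets ran from 3.42 to 6.31 and from 3.64 to 5.61, and the Zim1 probe set from 3.47 to 6.05. At most 3 of the 21 arrays lay above the 40th percentile on any of these 3 probe sets. Peg3 itself lay above 10 on 1433924_at in all ES lines and MEF, so the gene pair that shares a start region was bright on the Peg3 side and dim on the Usp29 side. Different probe sets do not have comparable signals, and this is a statement about detection only. A further 3 Ndn, 2 Peg3 and 1 Snurf-Snrpn probe sets never passed the filter, with highest levels between 4.82 and 6.14.

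Against fibroblasts, Ndn was lower and most of the Snrpn-side probe sets above the filter were called higher in ES cells. Ndn on 1435383_x_at averaged 10.37 ± 0.12 in ahES cells (SD, n = 9), against 12.98 ± 0.02 in MEF (SD, n = 3). All 5 Ndn probe sets fell by 2.30 to 2.67 on the log2 scale in ahES cells, with limma's adjusted p of at most 4.44e-10, and differed by -4.75 to -3.88 in diploid ES cells. These comparisons share the MEF arrays. Peg3 1417355_at was lower in ahES cells by -1.14 ± 0.22 (SE), and the other 2 Peg3 probe sets were at -0.56 and -0.79. Mkrn3 was at least 3.89-fold higher in ahES cells than in MEF (limma's adjusted p = 3.99e-09), where it lay near background. In all, 1 probe set with a single member symbol was called higher and 6 lower of 16 tested. Over all tested probe sets the shares were 19.4% higher and 20.3% lower. Diploid ES cells gave the same numbers of calls, against 21.4% and 21.1%. Of the Snurf-Snrpn probe sets, 3 of 5 were called higher in ahES cells than in MEF, with 1421063_s_at at 2.58 ± 0.12 and 1415896_x_at at 1.64 ± 0.11 (SE). In diploid ES cells 3 of 5 were called higher too, with differences of 0.36 to 2.20 over the 5. On 1435716_x_at R1 had a mean of 9.74, below that of MEF at 9.85, and their arrays overlapped. Snhg14 was higher than in MEF by 3.22 ± 0.17 and 3.04 ± 0.22 (SE) in ahES cells, on 1436964_at and 1455087_at. In diploid ES cells it was higher by 2.80 ± 0.18 and 2.72 ± 0.23 (SE).

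Round sperm, which like the ahES lines are haploid and of paternal genome, had lower Ndn and Peg3 signals than the ahES lines. Ndn on 1435383_x_at averaged 10.37 ± 0.12 in ahES cells (SD, n = 9), against 5.52, 5.38 and 5.88 in round sperm, close to background. Peg3 on 1433924_at averaged 11.29 ± 0.49 in ahES cells (SD, n = 9), against 5.41, 5.41 and 6.13 in round sperm. Ndn probe set 1437853_x_at stood apart, with a mean of 10.00 ± 0.15 in ahES cells (SD, n = 9), against 7.18, 6.99 and 6.83 in round sperm. These 3 arrays lay above the 40th percentile and within the range of CS1-1, which was at 7.46, 6.44 and 7.80. Relative to round sperm, ahES cells were higher by 4.78 ± 0.09 on Ndn 1435383_x_at, 2.99 on Ndn 1437853_x_at and 5.64 ± 0.12 (SE) on Peg3 1433924_at. Of 16 tested probe sets with a single member symbol, 11 were called higher and 1 lower in ahES cells. These calls came from 4 genes. Of all tested probe sets, 42.4% were called higher and 28.6% lower, and the median over all of them was 0.53. All 5 Snurf-Snrpn probe sets were called higher. On 3 of them the differences were 1.83, 2.01 and 3.84, and on 1421063_s_at and 1441905_x_at, where round sperm lay near background, the levels were at least 17.2-fold and 2.14-fold higher (limma's adjusted p of at most 2.35e-06 for all 5). The level of 1415895_at in round sperm was 9.99, 9.47 and 7.75, a spread of more than 2 log2 units that was not seen on the other 4. Ube3a split by probe set: in ahES cells 1416681_at was lower by -1.48 ± 0.13, whereas 1416682_at was higher by 1.96 ± 0.17 (SE). On 1445727_at round sperm lay near background, and the call there stands for a level at least 1.10-fold higher (limma's adjusted p = 0.000246). The RNA quality difference of round sperm named above moved with this comparison, and its part in the split between Ube3a probe sets was not tested.

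Imprinted genes outside the 2 clusters gave calls in both directions between ahES and diploid ES cells. Of 14 other paternally expressed genes tested, 2 were called higher (Impact at 1.09 and Sfmbt2 at 1.45) and 1 lower (Slc38a4 at -1.08), and 13 of the 14 lay above 0, with a median of 0.53. Of 22 other maternally expressed genes tested, 1 was called higher (Dcn, also a fibroblast marker) and 2 lower (Phlda2 and Ppp1r9a), with a median of -0.17. The median over all genes tested, each by its brightest probe set, was -0.03. Of all genes tested, 3.33% were called higher and 1.66% lower. These lists are descriptions and were not tested as sets.

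Over the 7 group means, the genes whose levels ran most like those of each member were named as a description, with Pearson's r among 15471 genes. They were Prnp (0.996), Sfrp2 (0.989) and Sh3bgrl (0.988) for Ndn, and Rnf170 (0.997), Slc17a5 (0.996) and Osbpl8 (0.995) for Peg3. For Mkrn3 they were Pdcd7, Diaph3 and Sp4, each at 0.986 to 0.989. Ube3a ran most like Tspan10 (0.985) and Magel2 most like Slc13a3 (0.960). Tspan10 lay near background in all ES lines, with group means of 4.60 to 5.43 there. Slc13a3 was dim, with group means of 5.50 to 6.22, so both likenesses rest on dim probe sets. MEF and round sperm stand far from the ES lines on most of these probe sets and weigh heavily in r. Within the ES lines Prnp, Sfrp2 and Sh3bgrl also ran as Ndn did, with each ahES line above R1 and R1 above CS1-1. Prnp, the closest, was at 11.05 to 11.61 in the ahES lines, 10.56 in R1 and 8.67 in CS1-1. These genes were highest in MEF, as Ndn was, and were picked by this likeness. Between members, r was 0.75 for Ndn with Peg3, 0.37 for Ndn with Mkrn3 and -0.76 for Ube3a with Peg3.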

How the data were processed

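Total RNA of 21 samples was measured on Affymetrix mouse expression arrays. The authors deposited log2 signals per probe set. MAS5 was used per the submitters' processing notes, which give no version. Base 2 was inferred, since back-transformed signals had a 2% trimmed mean of 500 on every array. Signals were restored, an offset of 9.73 (median over arrays of the 20th percentile) was added and log2 was taken. Gene symbols came from the platform annotation, which can be old.

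Differences were fitted with limma 3.58.1 (statmod 1.5.0, R 4.3.3; eBayes with trend and robust) over all probe sets that are no array controls. For ahES minus diploid ES, the line was a random block (consensus correlation 0.593). Other comparisons used a mean per group, so p-values measure the spread between arrays of a line. All tests were 2-sided. A group mean at or below its mean 40th percentile counted as near background. Folds against it are given as "at least" and use, for each of its arrays, the higher of the array's 40th percentile and the probe set's own level. The scripts were tested on simulated data. With 3 arrays per group, their number limits the precision.

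The named genes were all members, the 3 genes most like each, and fixed lists. Members, lists and marker genes were chosen with earlier results of these data known. Alternatives covered the offset, the filter, the scaling, the moderation, the gene summary, left-out arrays and lines, and the replicate block. Counting the 6 Snurf-Snrpn probe sets too was added after seeing the data. Correlations of same-numbered arrays lay between -0.03 and 0.02 over 21 pairs of groups, so numbers were not treated as pairs.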

Additional observations from a re-analysis of the deposited data

Results flagged for a closer look

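The difference of ahES cells from R1 and that from CS1-1 were not alike for 11 probe sets, which was tested directly as CS1-1 minus R1 with limma, since the ahES arrays cancel. For Ndn the CS1-1 minus R1 values were -1.488, -1.385, -1.645, -1.754 and -1.631 on the log2 scale, with adjusted p of at most 3.97e-05. For Peg3 they were 1.895, 2.061 and 1.601, with adjusted p of at most 1.7e-07. For the Snurf-Snrpn probe sets 1415896_x_at, 1421063_s_at and 1441905_x_at they were 1.239, 1.243 and 1.1, with adjusted p of at most 0.00186. R1 lay near background on 1441905_x_at, where the fitted 1.1 stands for a level at least 1.43-fold higher in CS1-1. The Ndn values were negative and the Peg3 and Snurf-Snrpn values positive, so neither diploid line was the lower of the pair for all of these genes. Relative to ahES cells, R1 was lower for Ndn by 0.83 to 1.27 and for Peg3 by 1.01 to 1.31, and also lower for Snurf-Snrpn.

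Single arrays stood apart on 2 dim probe sets. Peg3 1447731_at was at 4.487 in AH129-5 replicate 1, above the other 8 ahES arrays, and Usp29 1419237_at was at 5.201 in AH129-5 replicate 2. Neither probe set passed the filter on low values in any group. In all, 62 groups of values were screened for such arrays, and chance flags about 1 in 20.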

How the results depend on the processing

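The Ndn calls between ahES and diploid ES cells numbered 5 under each offset, filter, scaling and moderation tried, without any single array, and with the replicate number as a block (5), which changed no other count of calls by over 1.5 times. They numbered 0 with 1 mean per line. With a line left out, the probe sets with a single member symbol called were 6 without CS1-1, 4 without AH129-NC1 and 5 without any of the others. Counting the Snurf-Snrpn probe sets too, chosen after seeing the data, left this count at 5. Without CS1-1, Ndn 1415923_at stood at 0.83, short of 2-fold, and Peg3 1417355_at (1.31) and 1433924_at (1.01) were called. Directions turned for Peg3 and Snurf-Snrpn, where no call had been made. Without R1, Peg3 1417355_at, 1417356_at and 1433924_at stood at -0.58, -0.87 and -0.59, and Snurf;Snrpn 1415895_at, 1415896_x_at, 1421063_s_at and 1435716_x_at at -0.23, -0.34, -0.24 and -0.35. Without AH129-5, Peg3 1417356_at and 1433924_at stood at -0.26 and -0.11, and Snurf;Snrpn 1435716_x_at at -0.0046. Leaving out single lines shows that the sign rested on R1 and AH129-5; the cause was not tested.

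With an offset of 50, called probe sets with a single member symbol numbered 4 in ahES minus R1, 0 in AH129-N1 minus AH129-NC1 and 1 in AH129-5 minus AH129-N1. Quantile normalization gave 2 in AH129-5 minus AH129-NC1, and a filter at the 60th percentile gave 1 in AH129-5 minus AH129-N1. Counts of genes are smaller by construction. With 1 probe set per gene they were 1 (ahES minus diploid ES), 1 (minus CS1-1), 2 (minus R1), 2 (CS1-1 minus R1), 0 (AH129-5 minus AH129-NC1), 0 (AH129-5 minus AH129-N1), 2 (ahES minus MEF), 2 (diploid ES minus MEF) and 3 (ahES minus round sperm). With the mean over a gene's probe sets they were 1, 1, 0, 1, 0, 0, 2, 2 and 3 in that order. Without single arrays, counts ran from 6 to 7 in ahES minus R1, stayed at 8 in CS1-1 minus R1, and ran from 0 to 2 in AH129-5 minus AH129-NC1, 0 to 1 in AH129-N1 minus AH129-NC1, 1 to 3 in AH129-5 minus AH129-N1, 7 to 8 in each comparison with MEF and 12 to 13 in ahES minus round sperm. They stayed at 5 in ahES minus CS1-1.

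Of the values of single probe sets under all alternatives, 2122 kept their direction and side of the threshold, 40 lost a call, 6 gained one and 10 turned. With 3 ahES and 2 diploid lines, differences between kinds of ES cell rest on few lines. The haploid sort, ploidy and parental origin were not varied separately. Dim probe sets (Usp29, Zim1) limit any statement on those genes to detection.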
